A study of Mus musculus with 10 samples.

Results

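The clustered histone genes are the protein-coding genes whose symbols begin with Hist1h, Hist2h, Hist3h or Hist4h, and they were followed across sorted mouse B lineage cells with active NF-kB signalling, active Notch signalling, both, or neither. All genes of these names in the GENCODE M21 annotation were taken, transcript counts were summed per gene, and genes with at least 10 summed counts over the 10 libraries were kept. This left 62 genes of the 30205 in the files. Of 67 such symbols, Hist1h2bh and Hist1h2bm were not analysed here, Hist1h1t and Hist1h2ba were at 0 counts and Hist2h2ab, with 5.29 summed counts, lay just outside the limit. Hist1h3g with 10.1 and Hist1h2aa with 12.7 summed counts lay just inside it. The 62 genes comprise 5 of class H1, 17 of H2a, 15 of H2b, 12 of H3 and 13 of H4.

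All mice were C57BL/6, and every group was sorted as B lineage cells, with 2 libraries each and 16380889 to 23102081 estimated counts per library. The lymphoma group held lymphoma cells of Rosa-NIKdeltaT3flSTOP x Rosa-Notch2ICN x CD19Cre mice, and the doubly activated group held lymph node marginal zone precursor B cells of the same genotype before malignancy. The Notch-labelled group carried Rosa-Notch2ICN x CD19Cre and is labelled as lymph node marginal zone B cells, not as precursors. Its deposited tables carry in their names the letters that the other lymph node groups use for precursors, and this difference was not settled. The NF-kB-activated group carried Rosa-NIKdeltaT3flSTOP x CD19Cre, and the control group was wild type, both as lymph node marginal zone precursor B cells. CD19Cre switches the alleles on in the B lineage from an early stage, NIK is the kinase that starts the non-canonical NF-kB pathway and Notch2ICN is the active intracellular part of Notch2. The labels give no ages. Whether both libraries of one group came from different mice is not stated, and each p-value therefore reflects no more than the spread of these 10 libraries, which may be technical.

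Histones package DNA: pairs of H2A, H2B, H3 and H4 form the nucleosome core and H1 binds the linker between cores. Most clustered histone genes are transcribed in S phase, when DNA is copied, and their mRNAs usually end just after a stem-loop, bound by the protein SLBP, in place of a poly(A) tail. Some of these genes also give polyadenylated transcripts that read past the stem-loop, above all in cells that have stopped dividing or are differentiating. Libraries selected for poly(A) tails hold few of the tailless mRNAs; the labels do not say how RNA was selected for sequencing. The values below therefore describe the histone RNA that these libraries captured. A list of 13 RNAs known to be made without a tail, such as Rn7sk and Rmrp, was not analysed here and says nothing of that selection. Histone RNA was scarce, with 1106 to 3693 counts in a library. In these bulk samples, fewer cells of a type and less RNA per cell cannot be told apart.

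The stem-loop sequence showed which 3' end the annotation gives each gene, and 43 of the 62 genes held such a hairpin in a listed transcript, searched as a stem of 6 bases starting with GG, a loop of 4 bases of the form TNTN and the reverse complement of the stem, on the transcript strand. The form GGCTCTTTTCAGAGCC stood in 24 genes, of which 3 were H1, 10 H2a, 6 H2b and 5 H3 genes. The form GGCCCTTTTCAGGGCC stood in 7 genes, all H4. Of 85959 listed transcripts of other genes, 2 held the first form, 0 held the second and 0.29% held any such hairpin. The sites below, read from the GENCODE M21 transcripts (GRCm38), are those of genes whose values differed between groups, with the stem-loop in capitals and the flanking bases in lower case.
Hist1h1c (H1, chr13:23739507-23739532, + strand): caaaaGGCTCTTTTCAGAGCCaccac
Hist1h2ap (H2a, chr13:21833026-21833049, - strand): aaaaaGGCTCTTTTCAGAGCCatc
Hist3h2a (H2a, chr11:58955167-58955192, + strand): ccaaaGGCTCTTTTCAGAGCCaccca
Hist1h3c (H3, chr13:23745042-23745067, - strand): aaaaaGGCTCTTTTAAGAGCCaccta
Hist1h4i (H4, chr13:22040961-22040986, - strand): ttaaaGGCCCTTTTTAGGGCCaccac
Hist2h4 (H4, chr3:96262934-96262959, - strand): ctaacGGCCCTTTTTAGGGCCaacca
Hist4h4 (H4, chr6:136803993-136804018, - strand): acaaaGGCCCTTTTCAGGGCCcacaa

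The genes differed in how much annotated transcript follows this site. The listed model of Hist1h2ap ended 3 bases after the stem-loop and that of Hist1h3c 74 bases after it. The models of Hist1h4i, Hist1h1c, Hist2h4, Hist3h2a and Hist4h4 ran on for 330, 840, 1257, 1643 and 2445 bases. Taking each gene's most counted transcript, 21 genes ended within 100 bases of the stem-loop and 20 extended further. The other 21 had no stem-loop in the model, among them Hist1h2bc and Hist2h2be. Some of these models stop at the end of the coding part, such as Hist1h2bl (381 bases, 378 coding) and Hist1h4k (312 bases, 309 coding). A stem-loop could not lie in such models, so this set describes the annotation and not the 3' end of the RNA.

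Promoters were also compared by class, in the RefSeq windows of 300 bases (250 before and 50 after the start, GRCm38.p6), which were found for 56 of the 62 genes. The octamer ATGCAAAT, the letters bound by Oct-1 (Pou2f1), lay on either strand in 7 of 17 H2a and 4 of 13 H2b windows and in no H1, H3 or H4 window, 19.6% of the histone windows against 1.74% of 32851 windows of all genes. CCAAT lay in every H1, H2a, H2b and H3 window found and in 3 of 12 H4 windows, 83.9% in all against 37.4%. TATAAA lay in 57.1% of the histone windows against 13.6%. The motifs were searched on both strands and none contains another, but neighbouring H2a and H2b genes can share a window. The 150 bases before the start of 3 genes that changed are given below, with matches in capitals. TATAAA lay in 3 of 4 H1 and 8 of 12 H4 windows, so its marks below show no difference between classes.
Hist1h1c (H1, CCAAT; chr13:23738657-23738806, + strand): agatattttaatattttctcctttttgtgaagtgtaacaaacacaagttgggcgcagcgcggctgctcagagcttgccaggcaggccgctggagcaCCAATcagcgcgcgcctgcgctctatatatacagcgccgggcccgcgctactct
Hist3h2a (H2a, octamer and CCAAT on either strand; chr11:58954535-58954684, + strand): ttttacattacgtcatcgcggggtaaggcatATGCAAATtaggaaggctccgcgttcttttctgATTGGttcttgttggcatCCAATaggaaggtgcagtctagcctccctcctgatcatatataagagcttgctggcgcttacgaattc
Hist1h4i (H4, TATAAA; chr13:22041363-22041512, - strand): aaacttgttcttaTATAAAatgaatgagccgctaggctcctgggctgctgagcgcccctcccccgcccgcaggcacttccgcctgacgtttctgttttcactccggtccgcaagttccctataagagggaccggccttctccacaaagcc
A match is a description of these letters and not a bound site.

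The Notch-labelled libraries stood apart from the others. Their summed level of 3 stromal markers was 579 and 780 CPM, against 1.27 to 2.99 CPM in the other 8 libraries. CPM are counts scaled to library size after TMM. Their 5 B cell markers summed to 2279 and 2103 CPM, against 6658 and 6554 CPM in control libraries. Of these 5, 4 fell against control and 1, Pax5, rose. All 5 B cell markers were present in every group, with 3844 and 3632 CPM in lymphoma, 5369 and 5364 CPM in doubly activated and 5503 and 5764 CPM in NF-kB-activated libraries. Heyl, a Notch target, had 38.9 and 44.0 CPM in lymphoma, 23.3 and 25.6 in doubly activated, 50.9 and 44.1 in Notch-labelled and 2.94 and 2.15 in NF-kB-activated libraries, against 0.430 and 0.381 CPM in control libraries. Notch2 itself had 284 and 278 CPM in Notch-labelled libraries, against 652 and 690 CPM in control libraries; whether transgene reads are among them was not tested. Map3k14, which encodes NIK, had 220 and 217 CPM in NF-kB-activated libraries, against 103 and 130 CPM in control libraries.

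Summed over all 62 genes, histone RNA was higher in Notch-labelled libraries than in any other and lower in doubly activated than in control libraries. The sum was 85.2 and 74.6 CPM in lymphoma, 61.6 and 72.7 CPM in doubly activated, 182 and 183 CPM in Notch-labelled and 74.9 and 78.6 CPM in NF-kB-activated libraries, against 78.4 and 100 CPM in control libraries. The Notch-labelled libraries lay above and the doubly activated ones below both control libraries, while the lymphoma and NF-kB-activated ranges overlapped with control. The ratio of group means to control was 2.04 in Notch-labelled, 0.752 in doubly activated, 0.859 in NF-kB-activated and 0.894 in lymphoma libraries. These ratios share the same control libraries, and control libraries 1 and 2 themselves differed, with 45.4 and 181 CPM of 8 macrophage markers; the part of these markers in the result was not tested.

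By class, the Notch-labelled group was above control in all 5, with ratios of 2.60 for H1, 2.46 for H2a, 1.44 for H2b, 3.44 for H3 and 1.50 for H4. H3 RNA summed to 13.4 and 12.4 CPM in Notch-labelled, against 3.32 and 4.19 CPM in control libraries. In doubly activated cells, H3 RNA was 2.0 and 1.96 CPM and H2b RNA 14.7 and 15.2 CPM, against 22.1 and 27.1 CPM of H2b in control libraries, both without overlap. H4 RNA, at 13.6 and 13.1 CPM in doubly activated against 15.4 and 21.2 CPM in control libraries, was lower too. In lymphoma H1 RNA lay above control, at 14.8 and 14.6 CPM against 8.55 and 11.5 CPM in control libraries, and H2b RNA lay below it, at 19.8 and 20.4 CPM against 22.1 and 27.1 CPM. The other 3 classes overlapped. NF-kB-activated cells had less H1 RNA than control, at 7.86 and 6.34 CPM, and H3 RNA lay just below control, at 3.20 and 3.25 CPM against 3.32 and 4.19 CPM. No test was run on these sums.

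**Figure D1:**
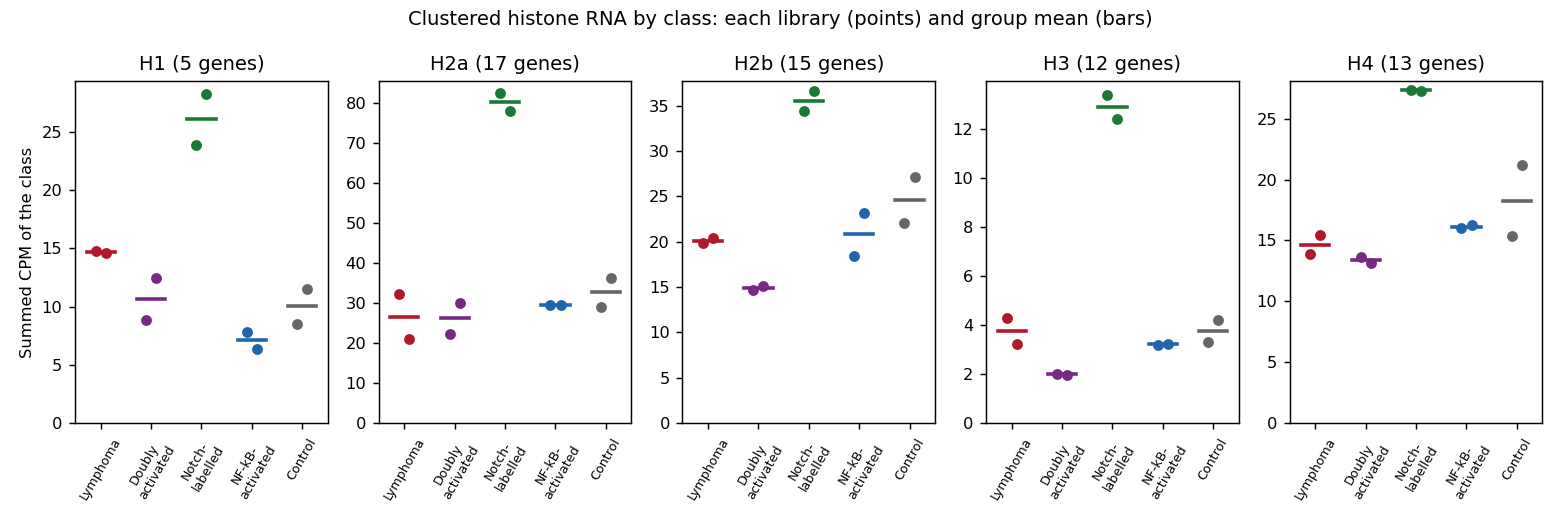
Summed CPM of each histone class (vertical axis, from 0) in the 10 libraries, with 1 point per library and a bar at the mean of each group. The Notch-labelled libraries lie above all others in every class, and H3 shows the lowest points in doubly activated cells, at 2.0 and 1.96 CPM.

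By gene cluster, the groups were ordered differently in Hist1 than in the other clusters. Hist1 (50 genes, chromosome 13, 21715763 to 23934851) lay above control in lymphoma and in Notch-labelled libraries. In contrast, Hist2 (9 genes, chromosome 3, 96220361 to 96270132), Hist3 (2 genes, chromosome 11, 58948920 to 58956830) and Hist4 (Hist4h4 alone, chromosome 6, 136801553 to 136804415) lay below control in lymphoma and in doubly activated libraries. Hist1 RNA summed to 54.1 and 47.5 CPM in lymphoma, 25.4 and 33.4 CPM in doubly activated, 144 and 143 CPM in Notch-labelled and 27.0 and 26.9 CPM in NF-kB-activated libraries, against 35.9 and 40.7 CPM in control libraries. No group overlapped with control, and the doubly and NF-kB-activated groups were the ones below it. Hist2 RNA summed to 14.5 and 11.8 CPM in lymphoma, against 19.4 and 28.7 CPM in control libraries, and Hist3 RNA to 10.8 and 8.26 CPM in lymphoma, against 14.3 and 19.5 CPM in control libraries. Doubly activated libraries had 16.5 and 18.4 CPM of Hist2 and 10.9 and 12.9 CPM of Hist3. Their Hist4 RNA, at 8.80 and 8.11 CPM, lay just below the control values of 8.86 and 11.3 CPM. In Notch-labelled libraries Hist2 overlapped with control, at 19.1 and 21.7 CPM, while Hist3 (12.3 and 12.2 CPM) and Hist4 (6.25 and 5.34 CPM) lay below it.

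The share of histone counts that came from Hist1 was 63.5% (95% Wilson interval 61.2 to 65.6) and 63.8% (61.3 to 66.1) in lymphoma, 41.3% (38.5 to 44.2) and 45.9% (43.0 to 48.8) in doubly activated and 79.2% (77.9 to 80.5) and 78.5% (77.2 to 79.8) in Notch-labelled libraries. It was 36.0% (33.6 to 38.6) and 34.2% (31.9 to 36.7) in NF-kB-activated libraries, against 45.7% (43.0 to 48.5) and 40.6% (38.4 to 42.9) in control libraries. The intervals cover counting error only. Lymphoma and Notch-labelled shares lay above, and NF-kB-activated shares below, both control shares, while the doubly activated shares overlapped with control.

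**Figure D2:**
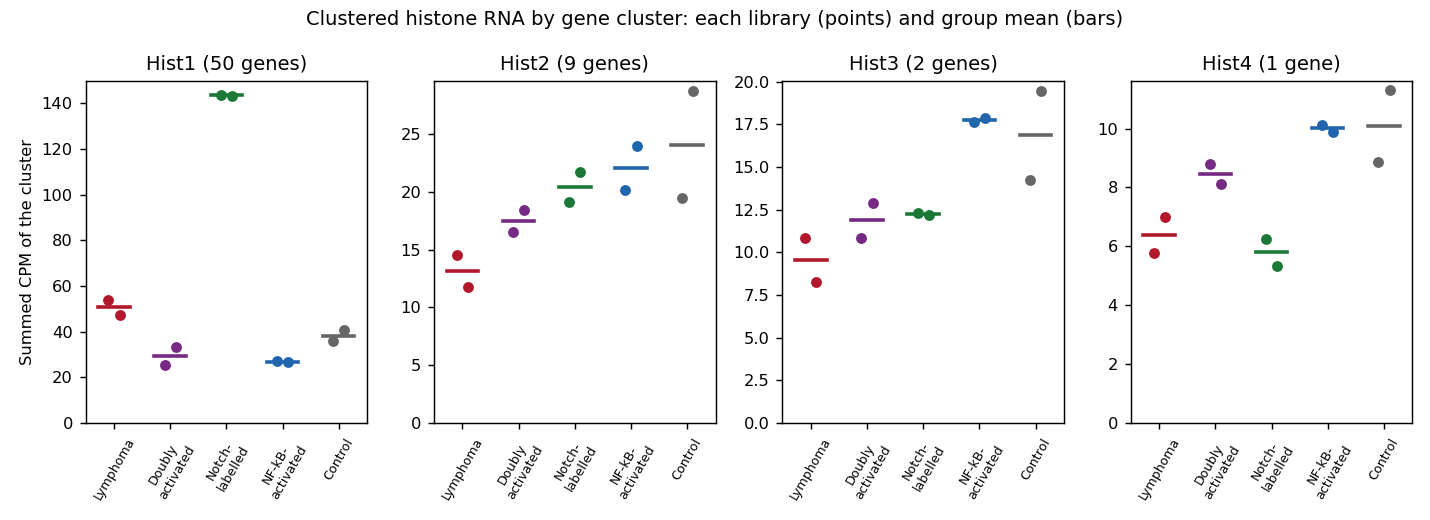
Summed CPM of each histone gene cluster (vertical axis, from 0) in the 10 libraries, with 1 point per library and a bar at the group mean. Hist1 is raised in lymphoma and above all in Notch-labelled libraries, while Hist2, Hist3 and Hist4 are lowest or among the lowest in lymphoma. Hist2, Hist3 and Hist4 also lie below control in doubly activated libraries.

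Many of these genes have near-identical copies, which limits what single genes can show. In 37 of the 62 genes fewer than 50% of the 31-base windows of the main transcript occurred in no other gene, and in 19 fewer than 20% did. The share was 6.64% for Hist1h2ap, 6.22% for Hist1h2ao and 0% for Hist2h2aa2, against 88.6% for Hist1h1c, 89.3% for Hist4h4, 97.7% for Hist2h2be, 67.9% for Hist3h2a, 65.5% for Hist1h2bc and 64.4% for Hist1h4i. Values of single genes with low shares are uncertain, since kallisto divides shared reads among copies, and sums over similar genes are given beside the calls that rest on them. By TPM, which corrects for length, the mean over the 10 libraries was highest for Hist1h2ap at 48.6 TPM, Hist2h2aa1 at 18.0 TPM, Hist1h2ao at 15.1 TPM, Hist1h2bc at 12.9 TPM and Hist2h2aa2 at 12.5 TPM. Hist1h4i followed at 11.5 TPM and Hist1h1c at 10.9 TPM. This order pools groups with different levels. Hist1h2ap had 175 and 181 TPM in Notch-labelled, against 16.9 and 21.8 TPM in control libraries, and Hist1h2ao had 88.4 and 46.6 TPM in Notch-labelled, against 0.0436 and 2.82 TPM in control libraries. Hist2h2aa1 overlapped between these groups, at 15.8 and 31.8 TPM in Notch-labelled and 21.6 and 15.4 TPM in control libraries.

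Of the 62 genes, 45 passed the filter on low counts and were tested, 33 of them in Hist1, all 9 of Hist2, both of Hist3 and Hist4h4. The median tested histone gene had a mean of 0.642 CPM, against 18.3 CPM over all 15583 genes tested. Below, a change is a log2 fold change ± standard error of edgeR's quasi-likelihood test, and adjusted p is Benjamini-Hochberg over all tested genes, called at 0.05. The comparisons with control share the same 2 control libraries. Of the 45 genes, DESeq2 and limma-voom, like edgeR, called 0 higher in NF-kB-activated against control and in doubly activated against control or NF-kB-activated cells, and 0 lower in lymphoma against doubly activated cells. Tested without the filter, all 62 genes gave 15 higher and 3 lower in Notch-labelled and 4 higher and 6 lower in lymphoma libraries, both against control, and 4 higher and 0 lower in lymphoma against doubly activated libraries.

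In Notch-labelled libraries, 13 histone genes were higher and 3 lower than in control, against 34.2% of all tested genes higher and 29.5% lower, 63.7% in all. At 28.9% and 6.67% of the 45, neither share exceeded that background. Of the 33 tested Hist1 genes 11 rose and none fell. An unadjusted p under 0.05 was found for 19 of the 45 histone genes, 42.2% against 67.2% of all tested genes. The groups did not overlap for 33 of the 45, against 82.9% of all genes. The median log2 fold change of the 45 was 1.17, and stayed 1.17 with genes at 0 counts put at their bound, against 0.07 over all genes. Members that passed the filter only through this group had to be higher in it, so the filter bears on this median and on the counts. How far it does was not tested. The called genes Hist1h2ah, Hist1h2br and Hist2h2bb are such members and are included in the counts above. Among genes without a call, Hist1h1a, Hist1h3b and Hist1h3d are such members too. Outside this group, only lymphoma library 2 (13 counts) reached the filter level for Hist1h1b, and only NF-kB-activated library 2 (15 counts) for Hist1h2an. Both of these called genes would not have passed the filter without the Notch-labelled libraries.

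Of the 5 linker histone genes, 3 rose, of which Hist1h1b would not have passed the filter without the Notch-labelled libraries. Hist1h1c (encoding H1.2) had 18.2 and 22.0 CPM in Notch-labelled libraries, against 7.69 and 9.47 CPM in control libraries, and both Notch-labelled libraries lay above both controls. It rose by 1.23 ± 0.21 (adjusted p = 2.9e-04). Hist1h1b (H1.5) had 1.35 and 2.52 CPM in Notch-labelled, against 0.123 and 0.381 CPM in control libraries, a change of 2.89 ± 0.86 (adjusted p = 0.0108), and Hist1h1e (H1.4) had 2.20 and 1.83 CPM, against 0.307 and 0.870 CPM in control libraries, a change of 1.75 ± 0.62 (adjusted p = 0.0260). The Hist1h1b call was lost without Notch-labelled library 2 (adjusted p = 0.107) or control library 1 (0.0715). The Hist1h1e call was lost with DESeq2 (0.0573), without Notch-labelled library 1 (0.118) or 2 (0.0654), and without control library 1 (0.151).

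Among core histones, Hist1h4i (H4) had 10.7 and 10.1 CPM in Notch-labelled libraries, against 2.52 and 2.45 CPM in control libraries, and rose by 2.07 ± 0.28 (adjusted p = 3.3e-05). Hist1h2bc (H2B) had 12.8 and 14.8 CPM in Notch-labelled, against 4.37 and 4.57 CPM in control libraries, and rose by 1.62 ± 0.28 (adjusted p = 2.5e-04). Both genes were separate between the groups in every library. Hist1h3c (H3) had 1.90 and 2.08 CPM in Notch-labelled libraries, against 0.246 and 0 CPM in control libraries, a change of 4.01 ± 0.96 (adjusted p = 0.00283) on 4 control counts. The 9 similar Hist1 H3 genes together summed to 8.80 and 7.61 CPM in Notch-labelled, against 1.48 and 1.41 CPM in control libraries. The 7 similar Hist1 H4 genes, Hist1h4i among them, summed to 17.2 and 17.0 CPM, against 4.24 and 6.15 CPM in control libraries.

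Hist1h2ap (H2A) had the largest level, with 37.5 and 38.3 CPM in Notch-labelled libraries, against 3.75 and 4.84 CPM in control libraries, and rose by 3.14 ± 0.55 (adjusted p = 0.00163). Its near copies Hist1h2ao, Hist1h2an and Hist1h2ah were also called. Hist1h2an and Hist1h2ah would not have passed the filter without the Notch-labelled libraries. Hist1h2ao had 18.8 and 9.79 CPM in Notch-labelled, against 0 and 0.598 CPM in control libraries (5.49 ± 1.81, adjusted p = 0.0465). The Hist1h2ao call was lost without a filter (0.0626), with DESeq2 (0.0902), and without Notch-labelled library 1 (0.147) or 2 (0.107), control library 1 (0.154) or 2 (0.0951) or doubly activated library 1 (0.0501). Hist1h2an, with 71 counts in Notch-labelled against 3 in control libraries, had a ratio of 20.4 (exact 95% interval 6.70 to 101, counting error only, adjusted p = 0.0213). That call was lost without Notch-labelled library 1 (0.121) or control library 1 (0.101). Hist1h2ah, with 76 counts against 0, was at least 21.8-fold higher (adjusted p = 0.00310, lost with DESeq2 at 0.169), the bound being set at 3 counts over the control group. How reads were divided among these copies is uncertain, but the 12 similar Hist1 H2a genes together summed to 66.0 and 59.5 CPM in Notch-labelled libraries, against 8.12 and 7.62 CPM in control libraries.

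The other rises were Hist1h2br, Hist2h2bb and Hist3h2ba, all H2B genes. Hist1h2br and Hist2h2bb, like Hist1h2ah above, passed the filter on low counts only through the Notch-labelled libraries. Their direction was thus fixed by the filter, and their p-values do not test it. Hist1h2br had 66 counts in Notch-labelled against 0 in control libraries and was at least 18.9-fold higher (adjusted p = 9.6e-04); over all libraries 43.8 of its 71.7 counts lay on a transcript annotated for nonsense-mediated decay. Hist2h2bb, named after its values were seen, had 28 counts against 0 and was at least 8.04-fold higher (adjusted p = 0.00419). Hist3h2ba had 3.70 and 3.96 CPM in Notch-labelled, against 1.84 and 1.90 CPM in control libraries, a change of 1.03 ± 0.38 (adjusted p = 0.0324). The Hist3h2ba call was lost with DESeq2 (0.0776), with the effective length offset (0.0545) and without Notch-labelled library 1 (0.0977) or 2 (0.129), control library 1 (0.0966) or 2 (0.0924) or NF-kB-activated library 2 (0.0518). The 12 similar Hist1 H2b genes, which include Hist1h2bc and Hist1h2br, summed to 24.1 and 26.2 CPM in Notch-labelled, against 12.1 and 11.8 CPM in control libraries.

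The 3 genes that fell lie outside Hist1. The models of Hist3h2a and Hist4h4 extend past the stem-loop, as do those of 4 genes that rose, and that of Hist2h2be has none, like those of 6 genes that rose. Hist3h2a (H2A) had 8.60 and 8.21 CPM in Notch-labelled libraries, against 12.4 and 17.6 CPM in control libraries, a change of -0.84 ± 0.21 (adjusted p = 0.00410). Hist4h4 (H4) had 6.25 and 5.34 CPM in Notch-labelled, against 8.86 and 11.3 CPM in control libraries, a change of -0.80 ± 0.21 (adjusted p = 0.00553, lost at 0.0548 without Notch-labelled library 2). Hist2h2be (H2B) had 6.00 and 5.74 CPM in Notch-labelled, against 8.18 and 13.4 CPM in control libraries, a change of -0.88 ± 0.30 (adjusted p = 0.0205). Its call was lost without Notch-labelled library 1 (0.0742) or 2 (0.0936) or control library 2 (0.184). Genes whose models end near the stem-loop summed to 77.3 and 73.1 CPM in Notch-labelled, against 18.0 and 21.3 CPM in control libraries, a ratio of 3.83. For those that extend past it the ratio was 1.41, at 63.8 and 63.6 CPM against 39.0 and 51.2 CPM in control libraries, and for those with no stem-loop in the model 1.76, at 40.5 and 45.8 CPM against 21.5 and 27.7 CPM. All 3 sets were without overlap between the groups. Much of the first sum came from Hist1h2ap, at 37.5 and 38.3 CPM in Notch-labelled libraries, and its near copy Hist1h2ao, at 18.8 and 9.79 CPM. By gene the order of the sets differed. The median log2 fold change of tested genes was 0.84 near the stem-loop, 1.15 past it and 1.62 with none in the model. The called shares were 20%, 35.3% and 53.8%, against 63.7% of all tested genes. The set with none includes Hist1h2ah, Hist1h2br, Hist2h2bb, Hist1h1a, Hist1h1b and Hist1h2an, which would not have passed the filter without the Notch-labelled libraries. Hist1h3b, near the stem-loop, and Hist1h3d, past it, are other such genes. These medians and shares thus depend on the filter, to an extent that was not tested. The stromal and B cell marker levels given above differed between the same libraries. Neutrophil markers summed to 68.2 and 68.2 CPM in Notch-labelled, against 0.430 and 17.0 CPM in control libraries. Plasma cell markers summed to 732 and 690 CPM, against 350 and 366 CPM, and T cell markers to 44.78 and 49.15 CPM, against 26.9 and 32.3 CPM. Marginal zone markers were lower, at 1492 and 1430 CPM, against 3910 and 2768 CPM. The part of these markers in the histone results was not tested here either.

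**Figure D3:**
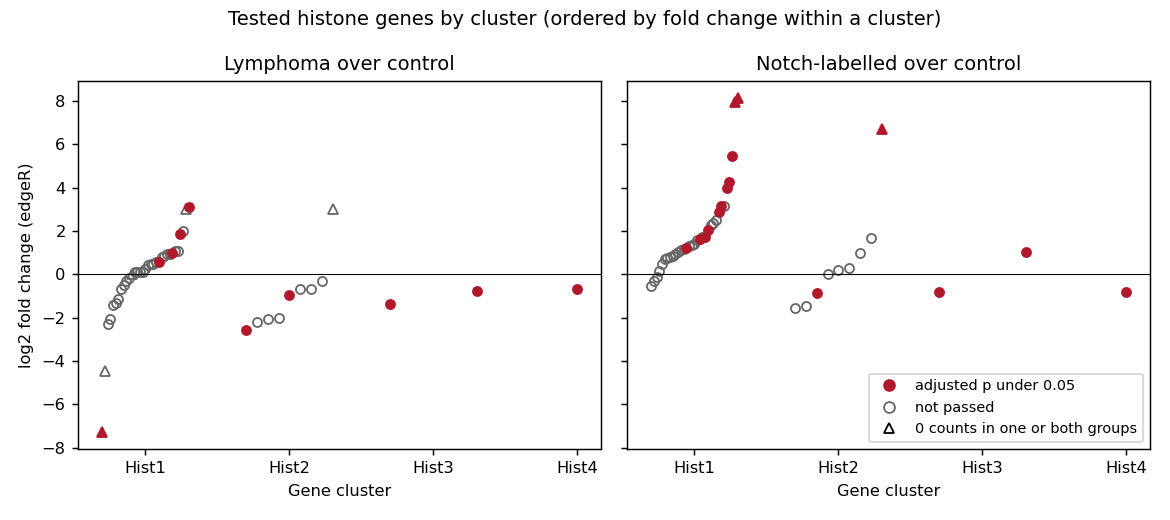
Log2 fold change (edgeR, vertical axis) of the 45 tested histone genes by cluster, for lymphoma over control (left) and Notch-labelled over control (right), which share the control libraries. Filled red symbols passed an adjusted p of 0.05, open ones did not, and triangles are genes at 0 counts in one or both groups, whose fitted value is no bound. In lymphoma 4 Hist1 genes rose and 1 fell, while the 5 called genes of the other clusters all fell. In Notch-labelled libraries all 11 called Hist1 genes rose, but Hist1h2ah, Hist1h2br, Hist1h1b and Hist1h2an would not have passed the filter without that group.

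In lymphoma, 4 histone genes were higher and 6 lower than in control, against 27.8% of all tested genes higher and 25.6% lower, 53.4% in all; at 8.89% and 13.3% of the 45, both shares were below the background. The groups did not overlap for 22 of the 45, against 73.3% of all genes, and 12 had an unadjusted p under 0.05, 26.7% against 58.2% of all genes. The median log2 fold change was 0.00, or -0.23 with genes at 0 counts put at their bound, against 0.02 over all genes. All 4 rises were in Hist1, and of the 6 falls 2 were in Hist2, 2 in Hist3, 1 in Hist4 and 1 in Hist1. The number called was 4 without lymphoma library 1 and 5 without control library 2. Of 5 plasma cell markers 3 rose, with sums of 1940 and 2083 CPM in lymphoma, against 350 and 366 CPM in control libraries. All 5 B cell markers fell, as did 6 of 7 T cell markers (sums of 10.2 and 9.82 CPM in lymphoma, against 26.9 and 32.3 CPM in control libraries) and 4 of 8 macrophage markers, of which 1 rose. The part of these markers in the histone results was not tested.

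The rises covered 4 of the 5 classes. Hist1h4i had 4.35 and 5.67 CPM in lymphoma, against 2.52 and 2.45 CPM in control libraries, a change of 1.01 ± 0.28 (adjusted p = 0.00838, lost at 0.0630 without lymphoma library 2). Hist1h3c had 1.20 and 0.928 CPM in lymphoma, against 0.246 and 0 CPM in control libraries, a change of 3.11 ± 0.98 (adjusted p = 0.0173). It was lost without lymphoma library 1 (0.0679) or control library 2 (0.0921). The 9 similar Hist1 H3 genes summed to 3.56 and 2.25 CPM in lymphoma, against 1.48 and 1.41 CPM in control libraries, again without overlap. Hist1h2bg (H2B) had 2.82 and 1.91 CPM in lymphoma, against 0.676 and 0.598 CPM in control libraries, a change of 1.88 ± 0.66 (adjusted p = 0.0299). Its call was lost without lymphoma library 1 (0.144) or control library 1 (0.0776) or 2 (0.109). Only 45.2% of its windows are its own, and the 12 similar Hist1 H2b genes together stood at 14.2 and 13.4 CPM in lymphoma, against 12.1 and 11.8 CPM in control libraries, a smaller difference. Hist1h1c had 12.6 and 13.3 CPM in lymphoma, against 7.69 and 9.47 CPM in control libraries, a change of 0.59 ± 0.21 (adjusted p = 0.0349). It lay at adjusted p 0.0505 to 0.165 in 9 of 20 alternatives, among them without lymphoma library 1 (0.0861) or 2 (0.125), Notch-labelled library 2 (0.0505) or control library 1 (0.165).

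The falls included both Hist3 genes and Hist4h4. Of 17 tested genes whose models extend past the stem-loop, 3 rose and 4 fell. Hist3h2a had 10.3 and 7.38 CPM in lymphoma, against 12.4 and 17.6 CPM in control libraries, a change of -0.77 ± 0.21 (adjusted p = 0.00849, lost at 0.0902 without lymphoma library 2 and 0.0966 without control library 2). Hist4h4 had 5.78 and 6.99 CPM in lymphoma, against 8.86 and 11.3 CPM in control libraries, a change of -0.66 ± 0.21 (adjusted p = 0.0188, lost at 0.122 without lymphoma library 1 and 0.132 without control library 2). Both genes were lower in each lymphoma library than in each control library. Hist3h2ba had 0.555 and 0.880 CPM in lymphoma, against 1.84 and 1.90 CPM in control libraries, a change of -1.38 ± 0.42 (adjusted p = 0.0140, lost at 0.0931 without lymphoma library 1 and 0.0538 with the compared groups only). Hist2h2be had 4.95 and 6.11 CPM in lymphoma, against 8.18 and 13.4 CPM in control libraries, a change of -0.97 ± 0.30 (adjusted p = 0.0155, lost at 0.109 without lymphoma library 1 and 0.169 without control library 2). Hist2h4 (H4) had 0.278 and 0.0977 CPM in lymphoma, against 0.861 and 1.47 CPM in control libraries, a change of -2.59 ± 0.71 (adjusted p = 0.00834, lost at 0.0681 without lymphoma library 2 and 0.0646 without control library 2). These genes too were separate between the groups. Hist1h2ai (H2A) was at 0 counts in lymphoma against 35 in control libraries, at least 14.2-fold lower (adjusted p = 0.00181), but 7.99% of its windows are its own and the 12 similar Hist1 H2a genes together stood at 13.6 and 8.94 CPM in lymphoma, against 8.12 and 7.62 CPM in control libraries.

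Between lymphoma and doubly activated cells, which carry the same alleles, 3 histone genes rose and none fell, against 26.1% of all tested genes higher and 25.2% lower, 51.3% in all. The groups did not overlap for 17 of the 45, against 74.6% of all genes, and 5 had an unadjusted p under 0.05, 11.1% against 56.7% of all genes. The median log2 fold change was 0.46, against 0.01 over all genes. Hist1h2ap had 10.3 and 6.06 CPM in lymphoma, against 1.28 and 0 CPM in doubly activated libraries, a change of 3.58 ± 0.71 (adjusted p = 0.00419, and 0.0959 with the compared groups only). The 12 similar Hist1 H2a genes stood at 13.6 and 8.94 CPM in lymphoma, against 2.51 and 3.60 CPM in doubly activated libraries, so the sum lay the same way, without overlap.

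Hist1h4i had 4.35 and 5.67 CPM in lymphoma, against 2.51 and 2.81 CPM in doubly activated libraries, a change of 0.91 ± 0.28 (adjusted p = 0.0151, lost at 0.102 without lymphoma library 2 and 0.0898 without doubly activated library 1). Hist1h1b had 23 counts in lymphoma against 2 in doubly activated libraries, a ratio of 9.09 (exact 95% interval 2.25 to 79.5, adjusted p = 0.0416). It would not have passed the filter without the Notch-labelled libraries. With the compared groups only, and without both Notch-labelled libraries, it was not tested. That call was lost with DESeq2 (0.0703), with the effective length offset (0.0545), and without lymphoma library 1 (0.0748) or 2 (0.129), doubly activated library 1 (0.236) or Notch-labelled library 1 (0.0651) or 2 (0.0758). In all, 5 genes were called without NF-kB-activated library 1 or 2 and 6 without doubly activated library 2. Hist1h1c, at 12.6 and 13.3 CPM in lymphoma against 7.68 and 11.6 CPM in doubly activated libraries, did not pass (0.43 ± 0.21, adjusted p = 0.114). Plasma cell markers summed to 1940 and 2083 CPM in lymphoma, against 587 and 723 CPM in doubly activated libraries; their part in these results was not tested.

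**Figure D4:**
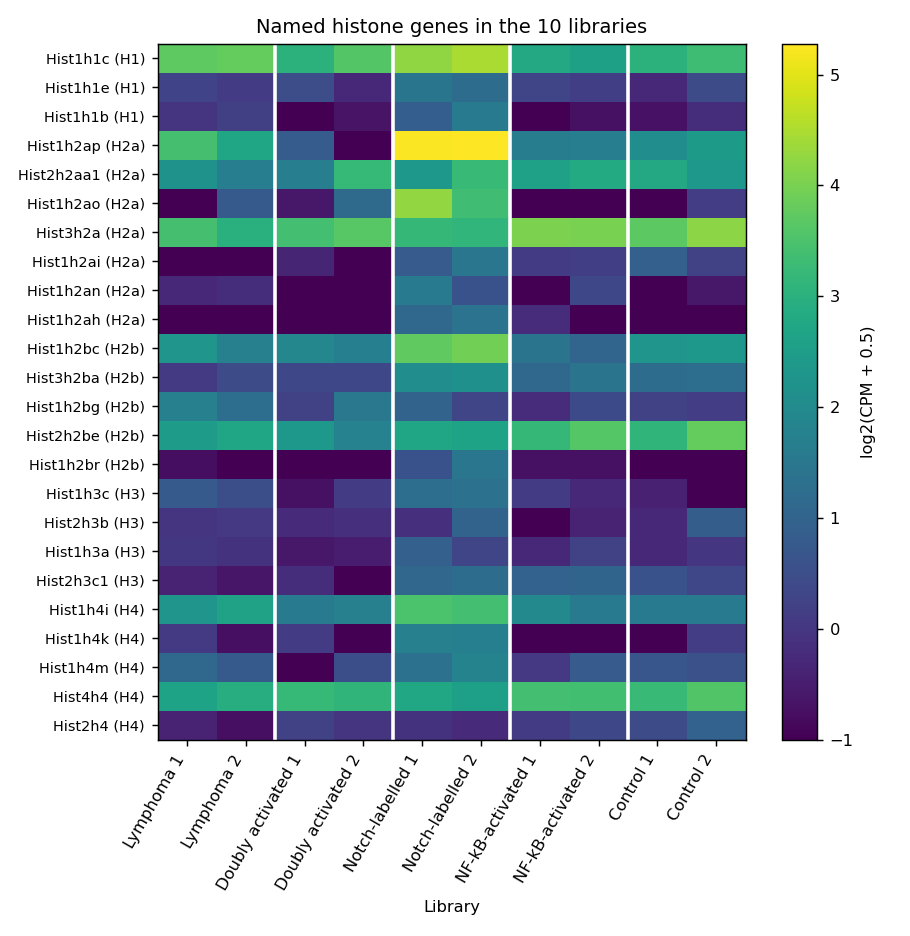
Level of the named histone genes as log2(CPM + 0.5) by colour, with genes down the page grouped by class and the 10 libraries across, white lines separating the groups. Hist1h2ap is brightest in the Notch-labelled libraries, at 37.5 and 38.3 CPM. Hist3h2a, Hist4h4 and Hist2h2be are dimmer in lymphoma, doubly activated and Notch-labelled libraries than in control libraries.

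In doubly activated cells 2 histone genes fell and none rose against control, where 9.3% of all tested genes fell and 10.5% rose, 19.8% in all. The groups did not overlap for 18 of the 45, against 55.3% of all genes, and 5 had an unadjusted p under 0.05, 11.1% against 31.7% of all genes. The median log2 fold change was -1.04, against 0.00 over all genes. Hist2h2be had 4.62 and 2.94 CPM in doubly activated, against 8.18 and 13.4 CPM in control libraries, a change of -1.51 ± 0.31 (adjusted p = 0.00439, lost at 0.0577 without doubly activated library 2). Hist1h2ap had 1.28 and 0 CPM in doubly activated, against 3.75 and 4.84 CPM in control libraries, a change of -2.65 ± 0.75 (adjusted p = 0.0472). The second doubly activated library, with none assigned to Hist1h2ap, had 1.77 CPM of its near copy Hist1h2ao. The 12 similar Hist1 H2a genes stood at 2.51 and 3.60 CPM in doubly activated, against 8.12 and 7.62 CPM in control libraries, so both libraries were lower for the sum as well. The Hist1h2ap call was lost at adjusted p 0.0530 to 0.176 without either lymphoma, Notch-labelled, NF-kB-activated or control library. It was also lost without a filter (0.0669), with DESeq2 (0.0668), with a replicate block (0.0663) and with the compared groups only (0.231). The fit without both Notch-labelled libraries lost it too (0.1005). The number called was then 1, and 4 without doubly activated library 1. Plasma cell markers summed to 587 and 723 CPM in doubly activated, against 350 and 366 CPM in control libraries (2 of 5 rose, 1 fell), and marginal zone markers to 4692 and 4955 CPM, against 3910 and 2768 CPM in control libraries (2 of 4 rose). Their part in these results was not tested.

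Against NF-kB-activated cells, which lack the Notch allele, 2 histone genes fell in doubly activated cells and none rose, where 7.28% of all tested genes fell and 6.62% rose, 13.9% in all. The groups did not overlap for 20 of the 45, against 59.8% of all genes, and 9 had an unadjusted p under 0.05, against 28.3% of all genes. The median log2 fold change was -0.35 (-0.31 with genes at 0 counts at their bound), against 0.00 over all genes. Hist2h2be had 4.62 and 2.94 CPM in doubly activated, against 8.49 and 11.8 CPM in NF-kB-activated libraries, a change of -1.42 ± 0.31 (adjusted p = 0.0103, lost at 0.119 without doubly activated library 2 and 0.0898 without NF-kB-activated library 2). Hist2h3c1 (H3) had 0.390 and 0 CPM in doubly activated, against 1.47 and 1.52 CPM in NF-kB-activated libraries, a change of -2.82 ± 0.82 (adjusted p = 0.0391). It shares sequence with Hist2h3b and Hist2h3c2, and the 3 together stood at 1.34 and 0.654 CPM, against 1.47 and 2.15 CPM in NF-kB-activated libraries. The Hist2h3c1 call was lost with the effective length offset (adjusted p = 0.0701), with a replicate block (0.0529) and with the compared groups only (0.0552). The fit without both Notch-labelled libraries lost it too (0.0637). It was lost as well in 7 of the 10 fits that left out a library (either lymphoma, Notch-labelled or NF-kB-activated library, or doubly activated library 2). The number called was 0 without NF-kB-activated library 2, 1 without any other of those libraries, and 4 without doubly activated library 1 or either control library. Neutrophil markers summed to 5.90 and 0.393 CPM in doubly activated, against 429 and 126 CPM in NF-kB-activated libraries; their part in these results was not tested.

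In NF-kB-activated cells 1 histone gene fell and none rose against control, where 6.6% of all tested genes fell and 8.72% rose, 15.3% in all. Hist1h2bc had 2.15 and 1.57 CPM in NF-kB-activated, against 4.37 and 4.57 CPM in control libraries, a change of -1.26 ± 0.30 (adjusted p = 0.0129). Both NF-kB-activated libraries lay below both controls. The call was lost without NF-kB-activated library 2 (0.119) and with the compared groups only (0.0604), which leaves 0 genes called. In the unadjusted test 6 of the 45, or 13.3%, had p under 0.05, against 27.3% of all genes. The groups did not overlap for 20 against 52.6% of all genes, and the median log2 fold change was -0.54, against 0.00 over all genes. The 12 similar Hist1 H2a genes stood at 4.04 and 4.82 CPM, against 8.12 and 7.62 CPM in control libraries. Hist4h4 and Hist3h2a, at 10.1 and 9.90 CPM and at 16.0 and 15.7 CPM in NF-kB-activated libraries, overlapped with their control values of 8.86 and 11.3 CPM and of 12.4 and 17.6 CPM. Neutrophil markers summed to 429 and 126 CPM in NF-kB-activated, against 0.430 and 17.0 CPM in control libraries; their part in this result was not tested.

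Several histone genes named for their level within their class were not called in any of the 6 comparisons. Hist2h2aa1 and Hist2h2aa2, near-identical H2A genes, together had 8.37 and 4.40 CPM in lymphoma, 9.47 and 14.3 CPM in doubly activated, 7.10 and 9.05 CPM in Notch-labelled and 9.12 and 8.85 CPM in NF-kB-activated libraries, against 7.99 and 10.2 CPM in control libraries. Hist1h4k and Hist1h4m (H4), Hist1h3a and Hist2h3b (H3) were also without a call. Among these genes named for their level, Hist1h4k came nearest, with 2.80 and 2.77 CPM in Notch-labelled against 0 and 0.598 CPM in control libraries (3.14 ± 1.28, adjusted p = 0.0586). Hist1h2be, an H2B gene, is a special case: 583.7 of its 693 summed counts lay on a processed transcript (chr13:23618980-23621078, - strand) that overlaps Hist1h1e (chr13:23620629-23622558) on the same strand, so its counts need not be H2B mRNA.

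S phase genes gave a comparison for the histones, using a list of 26 replication genes. Against control, 100%, 84.6%, 69.2% and 80.8% of them were called in Notch-labelled, lymphoma, doubly activated and NF-kB-activated libraries. The shares of all tested genes were 63.7%, 53.4%, 19.8% and 15.3%. In lymphoma against doubly activated cells 88.5% were called, beside 51.3% of all genes. In doubly activated against NF-kB-activated cells the share was 15.4%, near the 13.9% of all genes. In Notch-labelled libraries 26 of 26 rose against control and none fell, among them the replicative helicase subunits Mcm3 (2.01 ± 0.09, adjusted p = 3.3e-09) and Mcm2 (2.35 ± 0.11, adjusted p = 7.0e-09). The list summed to 1900 and 1876 CPM in lymphoma, 1115 and 1073 CPM in doubly activated, 4717 and 4629 CPM in Notch-labelled and 1070 and 936 CPM in NF-kB-activated libraries, against 1410 and 1322 CPM in control libraries. In lymphoma 19 of 26 rose and 3 fell against control, among the risers Tk1 (1.34 ± 0.09, adjusted p = 1.0e-07) and Tyms (1.76 ± 0.15, adjusted p = 1.3e-06), both nucleotide synthesis enzymes. Against doubly activated cells 21 rose and 2 fell in lymphoma, with Cdc45 at 2.02 ± 0.16 (adjusted p = 6.0e-07) and Mcm6 at 1.40 ± 0.11 (adjusted p = 7.5e-07). The S phase sum of both lymphoma libraries thus lay above both controls. The pooled histone sums of 85.2 and 74.6 CPM overlapped with the control sums of 78.4 and 100 CPM. Hist1 alone, at 54.1 and 47.5 CPM in lymphoma, lay above its control sums of 35.9 and 40.7 CPM, while Hist2, Hist3 and Hist4 lay below theirs. Against doubly activated libraries, at 61.6 and 72.7 CPM, the pooled histone sum in lymphoma was higher without overlap. In NF-kB-activated cells 20 of 26 fell and 1, Tk1 (0.96 ± 0.09, adjusted p = 1.7e-05), rose, with Mcm5 at -0.76 ± 0.12 (adjusted p = 8.9e-04). In doubly activated cells 17 fell and Tk1 alone rose against control (1.16 ± 0.09, adjusted p = 3.0e-06), with Ccne1, cyclin E1, at -1.43 ± 0.19 (adjusted p = 2.2e-04). Against NF-kB-activated cells 3 rose and 1 fell in doubly activated cells, Cdt1, a licensing factor, by 0.71 ± 0.12 (adjusted p = 0.00241) and Ccne1 by -0.90 ± 0.19 (adjusted p = 0.00931).

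**Figure D5:**
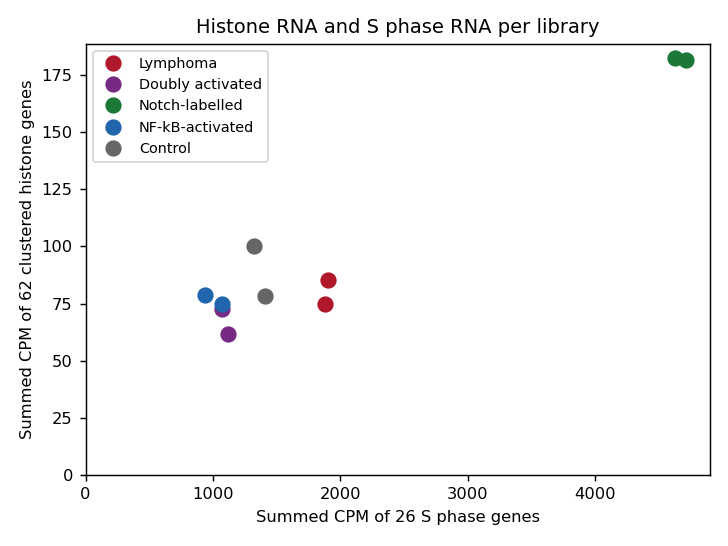
Summed CPM of the 62 clustered histone genes (vertical axis) against that of 26 S phase genes (horizontal axis), with 1 point per library, coloured by group and both axes from 0. The Notch-labelled libraries are high in both, and the lymphoma libraries lie to the right of the control libraries, at 1900 and 1876 CPM against 1410 and 1322 CPM, at an overlapping histone level. The Hist1 genes alone, not drawn here, lay above control in lymphoma.

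Replacement histones come from genes outside the clusters, and most are also made outside S phase, from polyadenylated mRNAs. H2afx (H2A.X) also gives a stem-loop mRNA in S phase, and Cenpa is made mainly in G2. Of 11, 10 rose and 1 fell in Notch-labelled against control libraries, 4 rose and 2 fell in lymphoma against control, and 5 rose and 2 fell in lymphoma against doubly activated libraries. The called shares of 100%, 54.5% and 63.6% stood beside 63.7%, 53.4% and 51.3% of all tested genes. Shares of 36.4% in NF-kB-activated and 27.3% in doubly activated against control libraries stood beside 15.3% and 19.8%. In doubly activated against NF-kB-activated libraries 27.3% stood beside 13.9%. H1f0, the linker histone H1.0 of resting and differentiated cells, averaged 35.6 ± 1.44 CPM in lymphoma, against 3.60 ± 0.92 CPM in doubly activated libraries (SD, n = 2 each; 3.31 ± 0.17, adjusted p = 1.0e-08). It averaged 102 ± 14.1 CPM in Notch-labelled, against 2.85 ± 0.120 CPM in control libraries (5.15 ± 0.17, adjusted p = 4.9e-10), and in lymphoma the change against control was 3.64 ± 0.17 (adjusted p = 4.6e-09). H2afz, the variant H2A.Z, averaged 351 ± 30.1 CPM in lymphoma, against 130 ± 8.80 CPM in control libraries (1.43 ± 0.10, adjusted p = 9.5e-08). It rose by 1.70 ± 0.10 in lymphoma against doubly activated (adjusted p = 3.0e-08) and by 1.53 ± 0.10 in Notch-labelled against control libraries (adjusted p = 4.9e-08). In NF-kB-activated cells 1 of 11 rose and 3 fell, with H3f3a, an H3.3 gene, at -0.75 ± 0.08 (adjusted p = 4.1e-05) and Cenpa, the centromeric H3, at -0.94 ± 0.12 (adjusted p = 1.4e-04). In doubly activated cells 1 rose and 2 fell against control, with H3f3a at -0.74 ± 0.08 (adjusted p = 3.4e-05) and H2afx at -0.58 ± 0.15 (adjusted p = 0.0210). Against NF-kB-activated cells 2 rose and 1 fell, with Cenpa at 0.69 ± 0.12 (adjusted p = 0.00240) and H3f3b, the other H3.3 gene, at 0.94 ± 0.18 (adjusted p = 0.00912).

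Stromal, B cell and other marker levels, given above, differed between Notch-labelled and control libraries for these lists too. Their part in the results was not tested.

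Histone chaperones, which carry new histones to DNA, were taken as a list of 20. Against control, 13 rose and 2 fell in Notch-labelled, 9 rose and 4 fell in lymphoma, 1 rose and 5 fell in doubly activated, and none rose and 5 fell in NF-kB-activated libraries. The called shares of 75.0%, 65.0%, 30.0% and 25.0% stood beside 63.7%, 53.4%, 19.8% and 15.3% of all tested genes. Chaf1b, a subunit of the replication chaperone CAF-1, rose by 2.64 ± 0.19 (adjusted p = 2.9e-07) and Rbbp7 by 1.12 ± 0.08 (adjusted p = 1.5e-07) in Notch-labelled libraries. In lymphoma against control, Rbbp7 rose by 0.80 ± 0.08 (adjusted p = 3.6e-06) and Anp32e, an H2A.Z chaperone, by 0.62 ± 0.08 (adjusted p = 3.3e-05). Against doubly activated cells 10 rose and 4 fell in lymphoma, with Asf1b, which passes H3 and H4 on, at 1.59 ± 0.18 (adjusted p = 1.4e-05) and Anp32e at 1.07 ± 0.08 (adjusted p = 3.4e-07). In NF-kB-activated cells Nasp, which holds H3 and H4 reserves, changed by -0.46 ± 0.10 (adjusted p = 0.00759) and Nap1l1 by -0.36 ± 0.07 (adjusted p = 0.00586). In doubly activated cells Anp32e changed by -0.45 ± 0.08 (adjusted p = 0.00179) and Asf1b by -0.83 ± 0.19 (adjusted p = 0.00813) against control. Against NF-kB-activated cells 1 of 20 rose, Chaf1b by 0.71 ± 0.21 (adjusted p = 0.0431), while Cabin1, at 0.30 ± 0.09, did not pass (adjusted p = 0.0534).

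The 18 genes for histone gene transcription and mRNA 3' processing moved less evenly. Against control, 8 rose and 5 fell in Notch-labelled, 1 rose and 7 fell in lymphoma, 1 rose and 2 fell in doubly activated and 1 rose and 1 fell in NF-kB-activated libraries. The called shares of 72.2%, 44.4%, 16.7% and 11.1% stood beside the same background, below it in all but Notch-labelled libraries. Cpsf2, a subunit of the complex that cuts histone pre-mRNA, averaged 54.8 ± 0.208 CPM in lymphoma, against 108 ± 7.29 CPM in control libraries (SD, n = 2 each; -0.98 ± 0.08, adjusted p = 4.6e-07). It also fell in Notch-labelled (-0.63 ± 0.08, adjusted p = 1.4e-05) and NF-kB-activated (-0.42 ± 0.08, adjusted p = 0.00258) against control libraries. Lsm11, part of the U7 particle that positions the cut, changed by -0.64 ± 0.17 in lymphoma against control (adjusted p = 0.00821). Pou2f1 (Oct-1), which binds the octamer shown above, fell by 1.37 on the log2 scale in Notch-labelled libraries (SE 0.12, adjusted p = 1.7e-06) and rose by 0.54 ± 0.12 in NF-kB-activated libraries (adjusted p = 0.00978), both against control. Slbp, the stem-loop binding protein, changed by -0.34 ± 0.08 (adjusted p = 0.0123) and Srrt by 0.27 ± 0.07 (adjusted p = 0.0167) in doubly activated against control libraries. Against NF-kB-activated cells 1 of 18 changed in doubly activated cells, Pou2f1 at -0.63 ± 0.12 (adjusted p = 0.00575), and Srrt, at 0.22 ± 0.07, did not pass (adjusted p = 0.0604). In lymphoma against doubly activated cells 2 rose and 4 fell, with Cpsf2 at -0.75 ± 0.08 (adjusted p = 5.5e-06) and Cpsf3, the cutting subunit, at -0.35 ± 0.07 (adjusted p = 0.00120).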

How the data were processed

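The authors deposited 1 table per library with estimated counts and TPM per transcript; per the file headers these are transcript estimates, made with kallisto 0.44.0 on build mm10 per the submitters' processing notes. Estimated counts as deposited were not normalized, while TPM as deposited divides them by effective length. The sources used here do not name the transcript release. Of 88198 transcripts, 86031 matched GENCODE M21 (GRCm38, positions from 1) and were summed to 30205 genes; unmatched ones held 1.09% to 1.38% of a library's counts.

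Counts were rounded and tested with edgeR 4.0.16 (R 4.3.3): filterByExpr (minimum count 10, total 15), TMM, and a robust quasi-likelihood fit with 5 groups over the 10 libraries (5 residual degrees of freedom), two-sided, Benjamini-Hochberg over 15583 genes. The test was checked on simulated data. For groups without a count a fold is a bound against 3 counts over the group. No replicate block was used in these tests.

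The histone genes, lists and tests were chosen with earlier results of these data known. Named were the 3 genes of each class with the highest TPM and, in each comparison, up to 4 called rises and 4 called falls without overlap and with at least 1 CPM; other called genes are named because all were. In other lists the 2 smallest p were named. Alternatives were other scalings and filters, DESeq2 1.42.0, limma-voom (limma 3.58.1), an effective length offset, a replicate block, the compared groups alone and each library left out. A fit without both Notch-labelled libraries was added after seeing the data.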

Additional observations from a re-analysis of the deposited data

How the results depend on the processing

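For the 34 called gene and comparison pairs, 660 values under the alternatives gave 569 with the call kept, 91 with it lost and none reversed, and 9 pairs kept it in every alternative run. The 9 were Hist1h1c, Hist1h2ap, Hist1h2bc, Hist1h2br, Hist1h3c, Hist1h4i, Hist2h2bb and Hist3h2a in Notch-labelled against control libraries and Hist1h2ai in lymphoma against control. All alternatives used the same estimated counts, so none tested how reads were divided among copies. Hist1h2ai has 7.99% of its windows to itself. The 12 similar Hist1 H2a genes together were higher in lymphoma, at 13.6 and 8.94 CPM against 8.12 and 7.62 CPM in control libraries. Hist1h2br and Hist2h2bb passed the main filter only through the Notch-labelled group. Doubly activated against control gave 1 called gene in place of 2 without a filter, with DESeq2, with the replicate block, with the compared groups only and without both Notch-labelled libraries. Doubly activated against NF-kB-activated gave 1 in place of 2 with the effective length offset, with the replicate block and without both Notch-labelled libraries, and NF-kB-activated against control gave 0 in place of 1 with the compared groups only. Under the replicate block the other 4 comparisons kept their counts of 1, 16, 3 and 10 genes. Deviations of same-numbered libraries correlated at -0.118 to 0.107 over 10 pairs of groups, so no strong shared effect of the library number was seen. These values cannot show whether same-numbered libraries were prepared together. Leaving out each library in turn gave 0 to 1 genes for NF-kB-activated against control, 12 to 19 for Notch-labelled against control, 1 to 4 for doubly activated against control, 0 to 4 against NF-kB-activated, 2 to 6 for lymphoma against doubly activated and 4 to 12 for lymphoma against control. Summed histone CPM in Notch-labelled libraries was 187 with DESeq2 size factors and 197 with library size alone, in place of 182. Library size alone moves every log2 fold change of Notch-labelled against control by 0.11. Tested histone genes had a median of 0.642 CPM, against 18.3 CPM over all tested genes; how far low counts limited the calls was not tested. The causes of these changes were not tested.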
